A study of Flaveria ramosissima and Flaveria robusta and Flaveria sonorensis with 9 samples.

Results

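The genes described here are those whose transcript abundance in the leaf was higher at low CO2 than at control CO2 in all 4 Flaveria species examined. They were 114 of the 8632 gene IDs that averaged 1 TPM or more in every species, and 114 of 29558 unique IDs in the table (TPM gives the abundance of a transcript relative to all others in its library). The genes were chosen by the low CO2 contrast itself. The change in each species was the log2 of the median TPM plus 1 over the 3 low CO2 libraries minus the same over the 3 control libraries, and it had to be at least 0.5 in all 4 species. In F. robusta, F. sonorensis and F. trinervia every low CO2 library also had to lie above every control library. In F. ramosissima the medians alone decided. The low CO2 changes of these genes are therefore a description, and limma calls on the same libraries, where given, are no independent test of them.

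The leaves were newly expanded and mature. F. robusta is a C3 species and F. trinervia a C4 species, and both others are C3-C4 intermediates, F. sonorensis of Type I and F. ramosissima of Type II. Plants were either kept for 4 weeks at a low CO2 level, labelled 100, or grown at a control level, labelled 380. The labels write both levels in a unit of light intensity, so they are quoted as labelled. For each species and CO2 level the table holds 3 numbered libraries of 1 sample, or 24 libraries in all. The sources used here leave unsaid whether the 3 libraries came from separate plants and whether a CO2 level had more than 1 growth run. The spread between libraries may then be technical, and CO2 level and growth run cannot be told apart. All plants of both groups shared light, temperature, day length and humidity, and 1 species stands for each photosynthetic type.

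In C3 leaves Rubisco fixes CO2 directly in the mesophyll. When CO2 is scarce, Rubisco takes up more oxygen, and the product is recycled by photorespiration with a loss of carbon. Type I C3-C4 plants release much of this photorespiratory CO2 in the bundle sheath, where it can be fixed again, and Type II plants add a partial C4 cycle. C4 plants concentrate CO2 around Rubisco in the bundle sheath and lose little carbon this way. The IDs in the table carry no gene names (0 of them held one), so no role is given to any gene here, leaf markers could not be checked, and no list of photorespiration or C4 genes could be matched. By a rule set on the size of the change, 2 IDs are named. Other genes are given by their place in an order.

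The 3 libraries of the F. ramosissima control stood apart from those of the other samples. Over the 114 genes, the median coefficient of variation between libraries was 21.3% in the F. ramosissima low CO2 sample and 40.8% in the F. ramosissima control, and it was 12.3% to 14.4% in the other 6 samples. The same held for all 8632 genes (38.0% in the F. ramosissima control). At 1 TPM or more, control library 3 of this species had 12813 genes, library 1 had 16564 and library 2 had 15875. Leaving out control library 1, 2 or 3 of F. ramosissima gave 130, 109 and 102 genes by the same rule, of which 111, 97 and 91 were among the 114. The number of reads cannot be read from TPM, so depth is unknown.

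The rule was passed by 1.32% of the 8632 genes. A change above 0 in all 4 species was seen in 1193 genes, and a change of at least 0.5 in 138. Of these 138, 24 were set aside because libraries overlapped in F. robusta (10 genes), F. sonorensis (7) or F. trinervia (9), with some genes overlapping in more than 1 species. Many more genes reached 0.5 in a single species (1149 in F. robusta, 961 in F. sonorensis, 797 in F. ramosissima and 1129 in F. trinervia). The set has no gap at its edge. The smallest changes inside were 0.501 and 0.506. The nearest genes outside, with separated libraries, had a smallest change of 0.498 and 0.497. Of the 114 genes, 36 had a smallest change below 0.6, and 56 genes just outside had one between 0.4 and 0.5. The mirrored rule for falling genes gave 190 genes. This balance depended on the scaling of the libraries, with 206 rising and 115 falling genes after median-ratio scaling, and 131 and 159 after quantile normalization.

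Together the 114 genes took up about 2 times as much of the leaf transcript pool at low CO2 as at control CO2. In F. robusta they summed to 24157, 24999 and 24940 TPM in the low CO2 libraries, against 9328, 12196 and 12314 TPM in the control libraries. In F. sonorensis the sums were 24749, 21340 and 21971 TPM at low CO2, against 11824, 9805 and 10051 TPM at control. In F. ramosissima they were 20757, 17922 and 14926 TPM at low CO2, against 11298, 7867 and 7637 TPM at control. No low CO2 library overlapped a control library in these 3 species. In F. trinervia the sums were 20502, 17661 and 18167 TPM at low CO2, against 9077, 7673 and 9177 TPM at control, again without overlap. The ratio of the mean sums, low CO2 over control, was 2.19 in F. robusta, 2.15 in F. sonorensis, 2.0 in F. ramosissima and 2.17 in F. trinervia. A few abundant genes carried much of the difference. The 5 genes with the largest gain in a species made up between 39.8% (F. ramosissima) and 46.1% (F. robusta) of the summed gain, and 7 to 9 genes made up 50% of it or more.

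**Figure D1:**
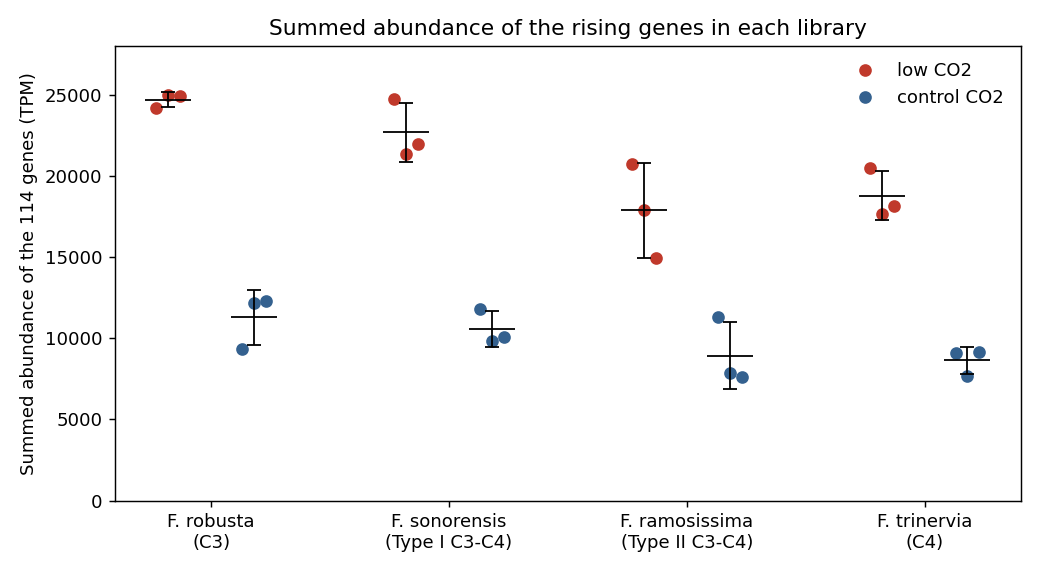
Summed abundance of the 114 genes in TPM (y axis) in each of 24 libraries, by species (x axis) and CO2 level (red, low; blue, control); points are libraries, and horizontal lines and bars are the mean ± SD of 3 libraries. In every species all low CO2 libraries sit above all control libraries, with the lowest low CO2 library at 14926 TPM (F. ramosissima) and the highest control library at 12314 TPM (F. robusta), as the choice of the genes favours.

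The median change lay within a narrow range in the 4 species. The rule set the same minimum of 0.5 in each, which favours this closeness, so no equal response of the species is read from it. The median change of the 114 genes was 0.87 in F. robusta (range 0.51 to 2.15), 0.95 in F. sonorensis (0.50 to 3.22), 0.91 in F. ramosissima (0.51 to 3.26) and 0.93 in F. trinervia (0.51 to 3.38), all on the log2(TPM + 1) scale. The medians over all 8632 genes were -0.03, -0.07, -0.18 and 0.02 in the same order of species. Median-ratio scaling moved the median of all genes up by 0.21 in F. ramosissima and 0.13 in F. sonorensis, and quantile normalization moved it up by 0.16 in F. ramosissima. Relative to the median of all genes, the median of the 114 was then 1.15 in F. ramosissima and 0.99 in F. sonorensis after median-ratio scaling, against 1.09 and 1.01 as deposited, and 0.95 in F. ramosissima after quantile normalization. All 114 genes kept a change above 0 in each species under both scalings, and 111 and 95 of them kept one of at least 0.5.

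A change of at least 1 (a doubling of TPM + 1) was reached by 42 of the 114 genes in F. robusta, 50 in F. sonorensis, 49 in F. ramosissima and 46 in F. trinervia. Only 11 genes reached it in all 4 species, 14 in exactly 3, 34 in 2, 33 in 1, and 22 in none. No species held most of the large changes. The largest change of a gene was in F. sonorensis for 32 genes, F. ramosissima for 31, F. robusta for 26 and F. trinervia for 25. The gap between the largest and the smallest change of a gene had a median of 0.62 and ranged from 0.11 to 2.74. It was below 0.5 for 43 genes and above 1 for 23. Across the 114 genes, the changes in pairs of species were weakly related, with Spearman's rho between 0.15 (F. robusta and F. sonorensis) and 0.37 (F. sonorensis and F. trinervia). Over all 8632 genes rho lay between 0.33 and 0.50. The rule cuts off small changes, genes are not independent replicates, and the libraries of a species are shared by all its genes, so these values are a description only.

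**Figure D2:**
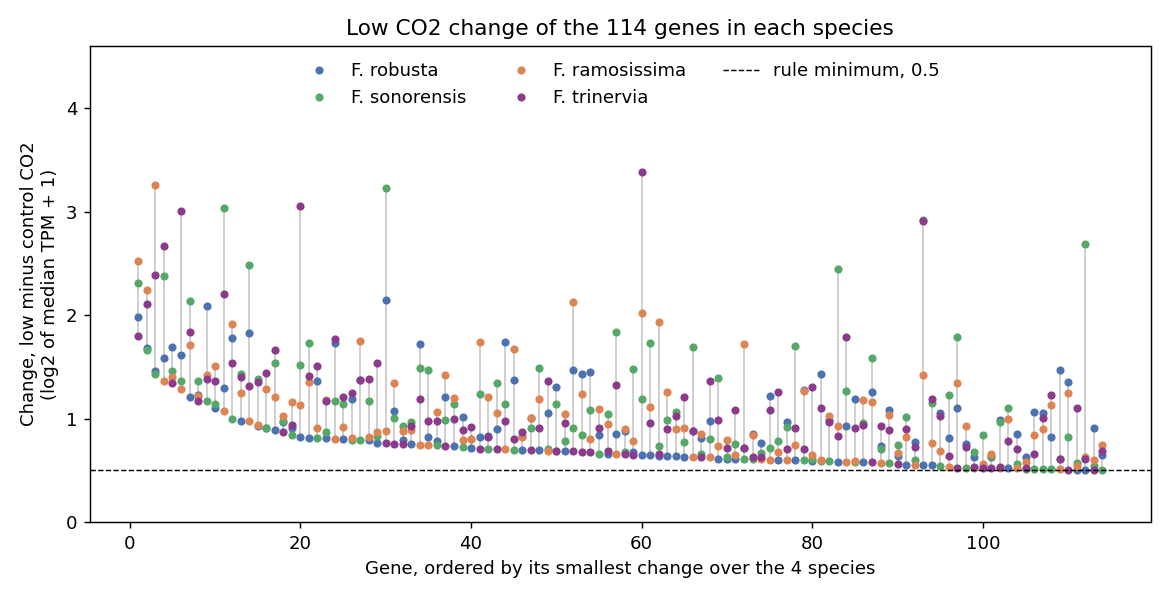
Change of each of the 114 genes at low CO2 in 4 species (y axis, log2 of median TPM + 1, low minus control), with genes ordered by their smallest change (x axis); colours are species, grey lines span the smallest to the largest change, and the dashed line is the minimum of 0.5 set by the rule. The smallest change declines from 1.80 to 0.50 with no break, while single species reach up to 3.38.

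Gene02312 had the largest smallest change of the set (1.80). Its abundance was 12.5, 3.83 and 2.36 TPM in the low CO2 libraries of F. robusta, against 1.23, 0.22 and 0.05 TPM in the control libraries. In F. sonorensis it was 58.6, 113.6 and 43.7 TPM at low CO2, against 2.34, 14.8 and 10.99 TPM at control. The libraries did not overlap in either species, though the lowest low CO2 library of F. robusta lay close to its highest control library. In F. trinervia it was 26.8, 69.9 and 44.9 TPM at low CO2, against 12.2, 13.9 and 10.9 TPM at control. In F. ramosissima it was 10.6, 8.73 and 0.640 TPM at low CO2, against 0.690, 3.14 and 0.330 TPM at control. Here low CO2 library 3 lay below 2 of the control libraries, so the groups overlapped. The change was 1.99 in F. robusta, 2.31 in F. sonorensis, 2.53 in F. ramosissima and 1.80 in F. trinervia. At such low values it depends on the pseudocount, and with 5 TPM in place of 1 the smallest change of this gene was 0.76 (in F. robusta), while with 0.1 TPM the change in F. robusta was 3.62. With means in place of medians, the change in F. ramosissima was 1.68.

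Gene32698 followed with a smallest change of 1.66. Its abundance was 158.1, 122.5 and 103.0 TPM in the low CO2 libraries of F. robusta, against 23.1, 37.5 and 40.2 TPM in the control libraries. In F. sonorensis it was 175.4, 177.0 and 184.7 TPM at low CO2, against 101.9, 55.3 and 55.1 TPM at control. All low CO2 libraries lay well above the control libraries in both species. In F. trinervia it was 87.4, 46.8 and 72.6 TPM at low CO2, against 19.1, 8.89 and 16.0 TPM at control. In F. ramosissima it was 63.0, 37.8 and 13.9 TPM at low CO2, against 24.9, 7.17 and 0.470 TPM at control. Low CO2 library 3 of F. ramosissima was again the lowest of its sample and lay below control library 1. The change was 1.68 in F. robusta, 1.66 in F. sonorensis, 2.25 in F. ramosissima and 2.11 in F. trinervia. Without F. ramosissima control library 3 the change in that species was 1.19.

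**Figure D3:**
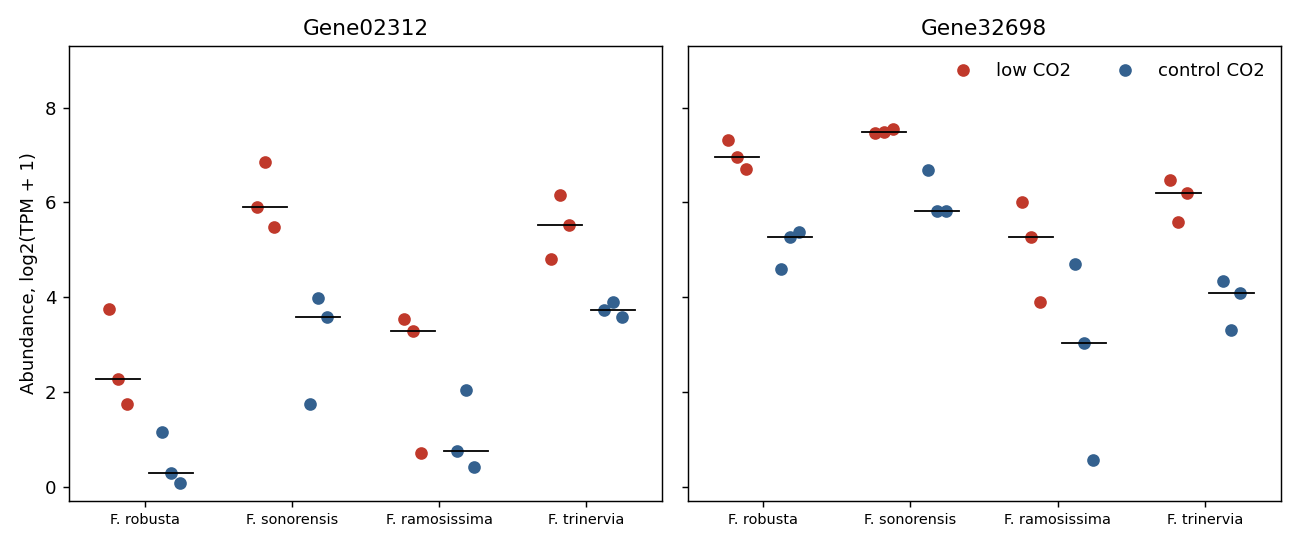
Abundance of Gene02312 and Gene32698 as log2(TPM + 1) (y axis) in the 3 low CO2 (red) and 3 control (blue) libraries of each species (x axis); points are libraries in the order of their numbers and lines are medians. The colours separate in F. robusta, F. sonorensis and F. trinervia and overlap in F. ramosissima.

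Of the other genes, the third in the order of smallest change differed most between species in its level. Its median at control CO2 was 77.6 TPM in F. sonorensis, 4.28 TPM in F. ramosissima, 42.7 TPM in F. trinervia and 1086 TPM in F. robusta. By its mean over the 24 libraries, it was 1 of the 5 most abundant of the set. At low CO2 its medians were 211, 49.5, 227 and 2995 TPM in the same order of species. The low CO2 libraries lay above the control libraries in all 4 species, including F. ramosissima (62.2, 49.5 and 25.98 TPM at low CO2, against 3.52, 8.75 and 4.28 TPM at control). The most abundant gene of the set averaged 1593 TPM over the 24 libraries. It had 2511, 2147 and 2167 TPM in the low CO2 libraries of F. robusta, against 506, 651 and 611 TPM in the control libraries. In F. trinervia it had 3592, 2654 and 3049 TPM at low CO2, against 1488, 900 and 1227 TPM at control. Its libraries did not overlap in any species, and its change was 1.82 in F. robusta, 2.49 in F. sonorensis, 0.98 in F. ramosissima and 1.31 in F. trinervia. These 2 genes were singled out after their values were seen.

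The 114 genes were more abundant than the rest of the table. Their mean abundance over the 24 libraries ranged from 5.52 to 1593 TPM with a median of 57.6 TPM, against a median of 14.2 TPM for all 8632 genes. At least 100 TPM was reached by 41 of the 114 genes (36.0%), against 9.998% of all genes. The mean takes in the low CO2 libraries, in which these genes were chosen to be higher. The pseudocount and the demand for separated libraries can both act against low genes. The choice of the genes therefore bears on this difference, and its part was not tested. Of the values of these genes, 1 was listed at 0, in F. ramosissima control library 2.

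Within species, limma on the libraries (log2(TPM + 1), Benjamini-Hochberg adjusted p below 0.05) called 110 of the 114 genes higher at low CO2 in F. robusta, where 13.6% of all genes were called higher. It called 114 in F. sonorensis (13.0% of all genes) and 111 in F. trinervia (11.6%). The rule used these libraries, so nothing is read from the counts. In F. ramosissima limma called 0 of the 114 genes, and 0% of all 8632 genes were called higher. At an unadjusted limma p below 0.05 were 72 of the 114, beside 1054 of all 8632 genes in either direction. A limma fit of all 24 libraries, which shares 1 estimate of the spread among the species, called 84 of the 114 genes higher there. Beside these, it called 517 of all 8632 genes higher. The rule used the medians of these libraries, so nothing is read from these counts either. For F. ramosissima the label of rising genes thus rests on medians. All 3 low CO2 libraries lay above all 3 control libraries in this species for 73 of the 114 genes, where 7.18% of all genes showed this, and the groups overlapped for the other 41.

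Whether the size of the low CO2 change differed between species was examined with limma interaction contrasts against F. robusta, with p-values adjusted over all 8632 genes. The rule used the same libraries and set a minimum for each change, which limits how far the changes can differ. The counts are therefore a description, the shares over all genes stand beside them for scale, and nothing is read from the difference. For F. sonorensis 15 of the 114 genes differed which is 13.2%, beside 17.6% of all genes. The change was larger than in F. robusta in 10 of them (beside 9.53% of all genes) and smaller in 5 (beside 8.03%). For F. trinervia 12 differed which is 10.5%, beside 16.5% of all genes, with 5 larger (beside 10.1%) and 7 smaller (beside 6.46%). For F. ramosissima 0 of the 114 differed, beside 0.637% of all genes. At an unadjusted limma p below 0.05 were 6 of the 114, beside 870 of all 8632 genes. The 24-library fit called 3 of the 114. Among all 8632 genes it called 164 with a larger and 106 with a smaller change. The split into larger and smaller changes did not hold across the alternatives. For F. sonorensis it was 4 larger and 6 smaller with a minimum of 5 TPM, 5 and 7 without a minimum TPM, and 11 and 11 after quantile normalization. For F. trinervia it was 4 and 1 without a minimum TPM, 3 and 2 in the 24-library fit, and 10 and 6 without F. robusta control library 1. Leaving out low CO2 library 1 or 3 of F. trinervia gave 7 genes in place of 12. Among all 8632 genes it gave 604 larger and 435 smaller changes without library 1, and 634 and 401 without library 3. With all libraries these were 869 and 558. In all, 25 of the 114 genes differed in F. sonorensis or F. trinervia, and 2 in both, counts that were not taken over all genes.

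The largest difference from F. robusta in F. trinervia was in a gene that stood at place 60 in the order of smallest change. It had 510, 320 and 353 TPM at low CO2 in F. trinervia, against 32.9, 30.7 and 33.0 TPM at control. In F. robusta it had 499.8, 351 and 267 TPM at low CO2, against 165.0, 243 and 224 TPM at control. The low CO2 levels of both species overlapped, while at control all F. trinervia libraries lay below all F. robusta libraries. The fitted change was 2.75 (log2) larger in F. trinervia. In F. sonorensis the largest difference was in a gene at place 112, with 9.08, 18.2 and 32.7 TPM at low CO2, against 2.47, 1.5 and 1.98 TPM at control. In F. robusta that gene had 26.8, 20.5 and 15.7 TPM at low CO2, against 10.7, 15.3 and 14.2 TPM at control. The fitted change was 2.06 larger in F. sonorensis. Both genes were picked for these differences, which are given without a test.

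The levels of the 114 genes at control CO2 were compared between species. The rule did not use this contrast, but it used the values of the same control libraries. The choice of the genes can therefore bear on their control levels and spread, and on the counts below. Each other species was set against F. robusta with limma on the control libraries. Each species had its own genome for alignment, and the sources used here do not say how rows pair genes across species, so differences in abundance and in pairing cannot be told apart. In F. trinervia 78 of the 114 genes (68.4%) were called different from F. robusta, beside 64.8% of all genes. Of these, 33 genes (28.9%) were higher and 45 (39.5%) lower in F. trinervia, where 37.4% of all genes were higher and 27.4% lower. In F. sonorensis 83 genes (72.8%) were called, beside 80.0% of all genes, with 61 higher (53.5%, beside 66.1%) and 22 lower (19.3%, beside 13.8%). In F. ramosissima 61 genes (53.5%) were called, beside 47.5% of all genes, with 19 higher (16.7%, beside 11.6%) and 42 lower (36.8%, beside 35.9%). The shares called were near those of all genes in each species. More of the 114 genes were lower than higher in F. trinervia under each scaling (29 higher and 47 lower after median-ratio scaling, 30 and 46 after quantile normalization). The split turned over with median-ratio scaling in F. sonorensis (24 higher and 53 lower) and F. ramosissima (33 and 22), and with quantile normalization in F. sonorensis (37 and 42). The split of all genes moved as well. Of all genes called in F. sonorensis, 82.7% were higher as deposited, 44.7% after median-ratio scaling and 61.6% after quantile normalization. In F. ramosissima 24.4% were higher as deposited and 58.1% after median-ratio scaling. In F. trinervia the shares were 57.7% as deposited, 49.7% after median-ratio scaling and 50.9% after quantile normalization. Without F. robusta control library 1, 2 or 3, the count in F. ramosissima was 42, 39 and 41. The calls over all 8632 genes fell too, to 618 higher and 2012 lower without library 2, from 999 and 3099.

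**Figure D4:**
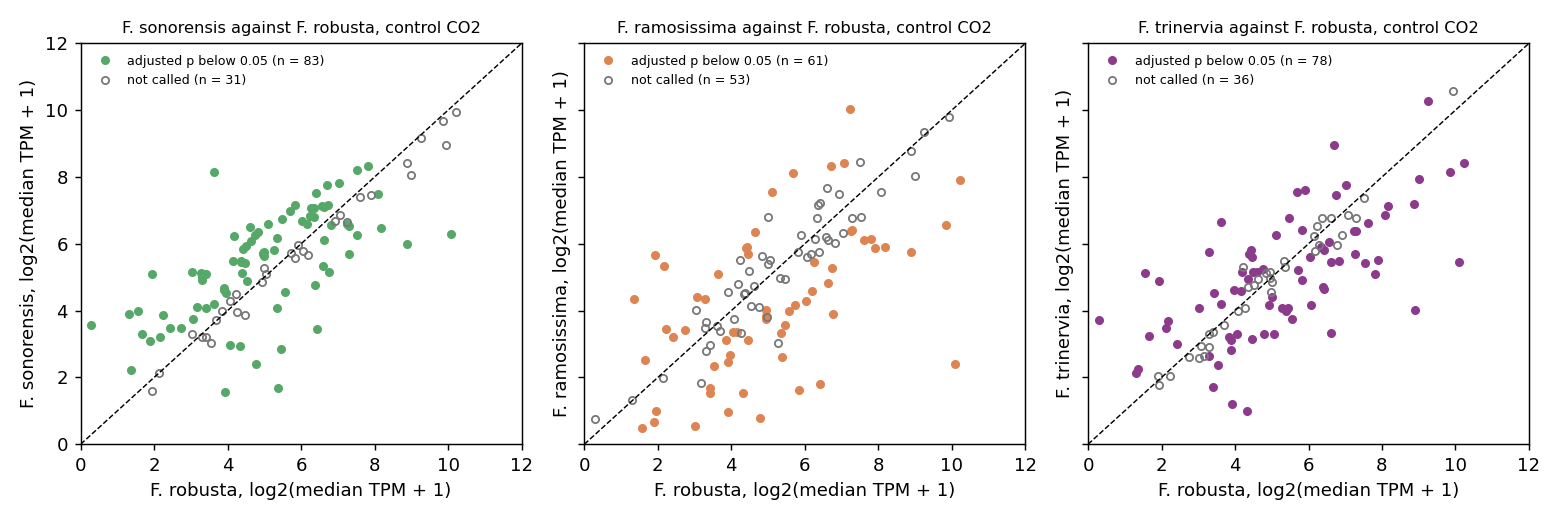
Control CO2 level of the 114 genes as log2(median TPM + 1) in F. sonorensis, F. ramosissima and F. trinervia (y axes) against F. robusta (x axes); each point is a gene, filled where limma called a difference, and the dashed line marks equal levels. Called genes lie on both sides of the line in each panel, 33 above and 45 below in F. trinervia.

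Between the species with the highest and the lowest median at control CO2, the ratio of TPM + 1 had a median of 3.52 over the 114 genes, against 3.41 over all 8632 genes, and ranged from 1.26 to 206. Of the 114 genes, 12 were called higher than F. robusta in each of the other 3 species, 12 lower in each, and 6 in none. Such counts were not taken over all genes, and nothing is read from them. The 2 named genes were picked by their low CO2 changes, which used these same control libraries. Their differences below are therefore a description and no independent test. Gene02312 was higher than in F. robusta by 2.60 (SE 0.54, limma adjusted p = 0.00203) in F. sonorensis and by 3.23 (SE 0.27, adjusted p = 3.1e-05) in F. trinervia, with a difference of 0.57 (SE 0.47, adjusted p = 0.350) in F. ramosissima. With a pseudocount of 0.1 TPM, which weighs the control values of F. robusta near 0 more, the differences of Gene02312 were 4.21 in F. sonorensis and 4.95 in F. trinervia, both still called. Gene32698 was lower in F. trinervia than in F. robusta, with a difference of -1.17 (SE 0.30, limma adjusted p = 0.00929), a call lost in the 24-library fit and without a minimum TPM. In F. sonorensis it was higher by 1.03 (SE 0.28, adjusted p = 0.00797). That call was lost in the same cases and under both scalings, with a difference of 0.17 after median-ratio scaling. In F. ramosissima the difference was -2.31 (SE 0.91, adjusted p = 0.0706), a call that was gained in 5 of the alternatives. Leaving out F. ramosissima control library 3 brought this difference to -1.21 (limma adjusted p = 0.0713), and leaving out control library 1 brought it to -3.28 (adjusted p = 0.0154).

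The numbers of the 3 libraries within a sample played no part in the rule, but the rule used the values of these libraries. The choice of the genes can therefore bear on how their libraries lie around the sample mean. In some libraries many of the 114 genes moved together. In F. robusta control library 1, 14.9% of the 114 genes lay above the mean of their sample, beside 58.5% of all 8632 genes and 48.6% of the 1571 genes that averaged 50 TPM or more. In F. ramosissima low CO2 library 3 the share was 21.1%, beside 74.6% of all genes and 66.1% of those abundant genes. In F. ramosissima low CO2 library 1 it was 83.3%, beside 32.2% and 34.6%. In these 3 libraries the 114 genes went the other way from most genes. This was not particular to them. Among other libraries, it was also seen in F. robusta control libraries 2 and 3 (76.3% in both, beside 44.5% and 44.4% of all genes). F. sonorensis control library 3 (36.0%, beside 60.4%) and F. trinervia control library 3 showed it too. In F. trinervia the share was 12.3% in control library 2, beside 33.7% of all genes, and 83.3% in control library 3, beside 43.8%. At 1 TPM or more, F. robusta control library 1 had 13646 genes and the other 2 control libraries had 13340 and 13080. F. ramosissima low CO2 library 3 had 15685, and libraries 1 and 2 had 14582 and 14564. The part of this number in the shift of the 114 genes was not tested. All genes of a library share its depth and composition, and the shares are a description.

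**Figure D5:**
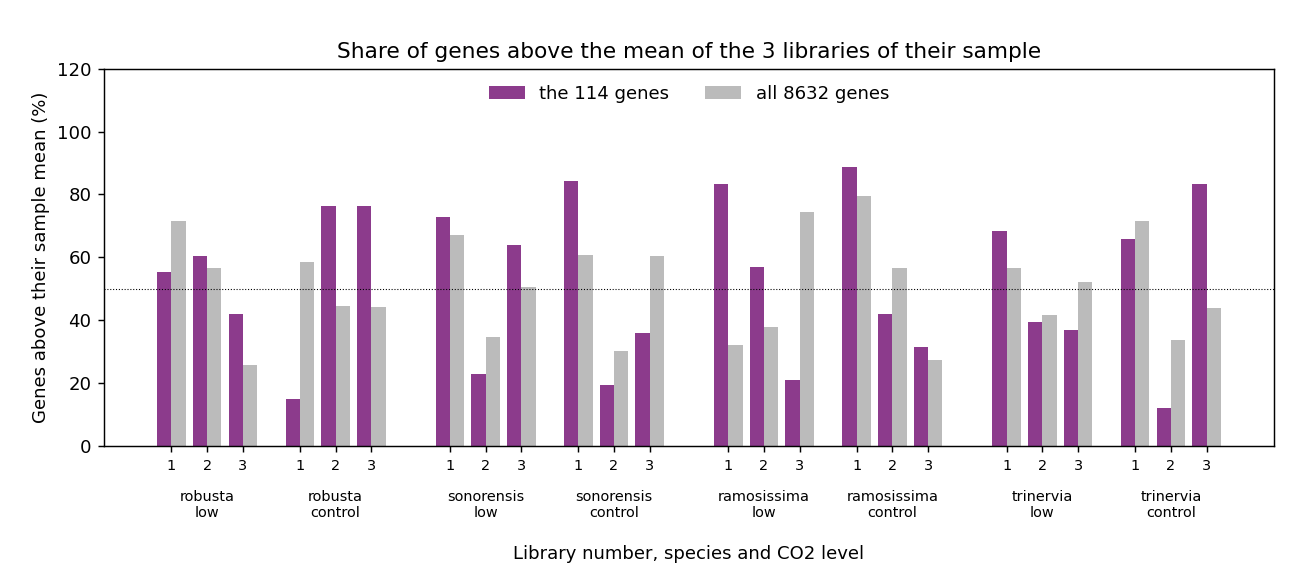
Share of genes in percent (y axis) whose log2(TPM + 1) lay above the mean of the 3 libraries of their sample, for each library (x axis, by species and CO2 level); purple bars are the 114 genes and grey bars all 8632 genes. The bars part most in F. ramosissima low CO2 libraries 3 (21.1% and 74.6%) and 1 (83.3% and 32.2%), followed by F. robusta control library 1 (14.9% and 58.5%).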

How the data were processed

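Leaf mRNA of 8 samples was sequenced in paired-end mode with 150 bp reads. The deposited values are TPM, which the authors obtained by aligning reads to the genome of each species with STAR and estimating abundance with RSEM. Where gene copies are alike, RSEM splits reads between them and their values are uncertain. The code in each of the 24 column names gave its sample, with 0 columns unused. Of 29566 rows, 8 were left out because their 4 IDs were repeated. The members, lists and tests were chosen with earlier results of these data known.

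TPM was used as deposited. Tests used log2(TPM + 1), which understates changes of low genes, in limma 3.58.1 (R 4.3.3; eBayes with a variance trend, two-sided) over the 8632 genes averaging 1 TPM or more in every species, with Benjamini-Hochberg adjustment and a threshold of 0.05. Fits took the 6 control libraries of 2 species, the 12 libraries of 2 species for interactions, or the 6 libraries of 1 species. They were tried on simulated data for the F. trinervia contrasts only, with independent noise and 1 spread per gene from F. robusta and F. trinervia. The larger spread of F. ramosissima and shifts shared by a library were not simulated. The 2 named IDs had the largest smallest change among genes averaging 10 TPM or more. Alternatives covered the pseudocount, minimum TPM, scaling, thresholds, variance trend, a 24-library fit, 1 value per sample, leaving out single libraries and a replicate block. A long-read sample of several organs of F. ramosissima was not used here.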

Additional observations from a re-analysis of the deposited data

Results flagged for a closer look

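Differences in the low CO2 change between species were singled out where limma's interaction contrast called them. They were called for 15 of the 114 genes between F. sonorensis and F. robusta, with a largest difference of 2.06 (log2), where 17.6% of all genes were called. Between F. trinervia and F. robusta they were called for 12 genes, with a largest difference of 2.75, where 16.5% of all genes were called. The genes were chosen on the same libraries in both species, so these calls are a description and no independent test. The gene with the difference of 2.75 reached similar levels in both species at low CO2, and its control libraries were lower in F. trinervia (at most 33.0 TPM) than in F. robusta (at least 165.0 TPM). Groups of 3 libraries are too small for a check of single distant libraries.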

How the results depend on the processing

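The number of genes meeting the rule was 206 after median-ratio scaling, 267 with a minimum change of 0.25, 11 with a minimum of 1, and 73 when separated libraries were asked in F. ramosissima too, in place of 114. It ranged from 96 to 130 when 1 library was left out. Calls against F. robusta at control ranged from 79 to 90 of the 114 genes in F. sonorensis, 39 to 74 in F. ramosissima and 71 to 82 in F. trinervia on leaving out a library. Interaction calls ranged from 11 to 19, stayed at 0, and ranged from 7 to 17 in the same order of species. In the 24-library fit they were 5, 3 and 5. Without a minimum TPM they were 1 in F. ramosissima and 5 in F. trinervia. The control CO2 calls moved over all 8632 genes as well. In F. ramosissima, 618 were higher and 2012 lower without F. robusta control library 2. Without F. ramosissima control library 3, 1561 were higher and 3357 lower. Calls at low CO2 ranged from 92 to 106 in F. robusta, 93 to 111 in F. sonorensis, 0 to 2 in F. ramosissima (2 without control library 3) and 94 to 107 in F. trinervia on leaving out a library. Without a minimum TPM, where more genes share the adjustment, the 3 species other than F. ramosissima had 68, 75 and 66 calls. The 24-library fit called 84 in F. ramosissima, beside 517 of all 8632 genes called higher. The other alternatives kept each of these totals within 1.5 times. Counts split by direction moved further, and of the interaction calls in F. sonorensis the larger changes ranged from 4 to 11 and the smaller from 1 to 11 over the alternatives that kept all libraries. Library numbers gave no clear pairing over all samples. Of 12 same-numbered pairs, 6 correlated above 0.1, and 4 of 12 low CO2 libraries correlated best with their own number. In F. trinervia the same-numbered pairs 1, 2 and 3 correlated at 0.32, 0.41 and -0.006. With 3 libraries per sample, pairing within a single species cannot be judged. With the replicate block, the calls at low CO2 were 105, 113, 0 and 111 (F. robusta, F. sonorensis, F. ramosissima, F. trinervia), those at control 81, 61 and 78, and the interactions 16, 0 and 14. With TPM and no counts, precision rests on 3 libraries per sample.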

Other observations

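The levels of F. robusta (C3) at low CO2 were also set beside those of F. trinervia (C4) at control CO2, as a description. Of the 114 genes, 47 had a higher median in F. trinervia than in F. robusta at control CO2. For 25 of these 47, the median of F. robusta at low CO2 was as high as that of F. trinervia at control CO2 or higher. The rule set a minimum rise in F. robusta, which favours this outcome. Neither count was taken over all genes, so nothing is read from them. The gene with the most even change over the 4 species, singled out after its values were seen, had changes between 0.52 and 0.63.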
